A study of Ovis aries with 14 samples.

Results

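The stress axis genes described here are NR3C1, CRHR1, CRHBP, AVPR1B, HSD11B1, HSD11B2, PTGS2 and FBXO32. All probes whose gene name or matched symbol was one of these 8 genes, of 964 named genes on the array, were taken, which gave 13 probes of 15008. All 13 were among the 13738 probes kept for testing, those with a signal well above background on at least 3 arrays. The samples were hypothalami of fetal sheep (Ovis aries) of about 130 days of gestation, taken after an infusion of 2 days with a vehicle or with triclosan, an antibacterial compound used in soaps and toothpaste. In the direct arm, chronically catheterised fetuses received vehicle (fetal vehicle, n = 4) or triclosan at 250 µg per day (fetal triclosan, n = 4) intravenously. In the indirect arm the ewe's circulation received vehicle (maternal vehicle) or triclosan at 100 µg/kg per day (maternal triclosan, n = 3). Maternal vehicle was deposited as 3 arrays, but every spot of replicate 3 was a weighted sum of replicates 1 and 2 (0.6 and 0.4), so that array was left out and the group has n = 2. Whether the animals of a group came from separate ewes, and their sex, is unstated in the labels, so p-values measure only the spread between these samples.

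The hypothalamus starts the hormonal stress response: corticotropin-releasing hormone and vasopressin from its paraventricular neurons act on pituitary corticotrophs, which release the hormone that drives adrenal cortisol. Cortisol then acts back on the brain through the glucocorticoid receptor, and enzymes inside the target cell either regenerate cortisol or inactivate it. In fetal sheep this axis becomes more active towards term, and the rise in fetal cortisol is part of the start of labour; prostaglandins made in the fetal brain are known to stimulate it.

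Expression is given as log2 of the background-subtracted signal minus the 75th percentile of the array, so that a level of 0 is the 75th percentile itself and a level of −5 is dim. A probe's level is compared between arrays, not with the level of another gene's probe, since the brightness of a probe also depends on its sequence. Before this scaling the median signal was 236 to 307 on the fetal triclosan arrays and 315 to 380 on the fetal vehicle arrays, and 284 to 376 on those of the indirect arm. The share of spots well above background was 83.3% to 90.1% per array, and 0 spots were saturated. Of the marker lists used to check the tissue, 10 of 11 genes of hypothalamic neurons were measured. Their summed signal (in units of the 75th percentile) ranged from 9.19 to 19.8 (fetal vehicle), 9.50 to 56.1 (fetal triclosan), 11.2 to 16.0 (maternal vehicle) and 25.0 to 34.8 (maternal triclosan). SST was the largest part of this sum, and none of the 10 genes passed with direct or indirect exposure. The summed signal of 3 of 5 erythroid markers was 4.28 to 12.5, 11.8 to 23.4, 3.28 to 8.90 and 10.5 to 26.8 in the same order of groups. HBB was nearly all of that sum. With direct exposure HBB, AHSP and CA1 differed by 1.32, 0.94 and 1.14, and only AHSP passed. The 4 of 6 markers of meninges and matrix measured summed to 41.2 to 66.8 with fetal vehicle and 63.4 to 82.3 with fetal triclosan, with PTGDS the largest part; of the other members TIMP1 and DCN differed by 0.38 and 0.30 and COL1A2 by −0.42 with direct exposure, and none of these 3 passed. The 4 of 8 markers of endothelium and pericytes summed to 0.650 to 0.921 with fetal vehicle and 0.497 to 0.715 with fetal triclosan. With direct exposure KDR and FLT1 differed by −1.57 and −1.19 and passed. PECAM1 and TIE1 differed by −0.26 and 0.06 and did not. The 4 of 8 astrocyte markers summed to 61.6 to 77.3 with fetal vehicle and 64.2 to 91.3 with fetal triclosan. AQP4 was the largest part. With direct exposure FGFR3 differed by −1.61 and passed, and GFAP, EAAT2 and AQP4, at −0.63, −0.30 and 0.13, did not. Of 7 markers of microglia and leukocytes 3 were measured. ITGAM differed by −0.95 with direct exposure and passed, and FCER1G and CD14, at 0.46 and −0.03, did not. None of the 6 oligodendrocyte markers was measured. These sums are of transcripts, and the part of tissue make-up in them or in the results below was not tested. In a piece of tissue, fewer cells of a type and less RNA per cell cannot be told apart.

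The 8 genes were represented unequally. NR3C1, CRHR1 and FBXO32 had 1 probe each, that of CRHR1 printed at 5 spots, and the other 5 genes had 2 probes each. The probes of the 3 receptors are shown, NR3C1 and CRHR1 because each result rests on a single probe, and AVPR1B because its 2 probes are nearly the same 60 bases. They share 59 bases, and the capital marks the single base at one end that the other probe lacks.
NR3C1: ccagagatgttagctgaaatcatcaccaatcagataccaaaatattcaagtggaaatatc
CRHR1: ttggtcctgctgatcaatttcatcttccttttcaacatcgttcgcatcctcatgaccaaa
AVPR1B probe 1: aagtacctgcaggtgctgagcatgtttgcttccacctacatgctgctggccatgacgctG
AVPR1B probe 2: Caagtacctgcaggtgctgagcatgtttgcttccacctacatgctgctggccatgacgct
The paired probes of CRHBP and of HSD11B2 also share 59 bases, whereas those of HSD11B1 and of PTGS2 lie at different places of the transcript with no overlap.

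With triclosan infused into the fetus, the glucocorticoid receptor NR3C1 was higher and FBXO32, a muscle-atrophy ubiquitin ligase whose gene is induced by glucocorticoids, was lower. CRHR1, the main receptor of corticotropin-releasing hormone, was lower on average but missed the threshold. The other 10 probes, of CRHBP, AVPR1B, HSD11B1, HSD11B2 and PTGS2, did not pass. The tests are limma's moderated tests (two-sided, 13 arrays in one model) with Benjamini-Hochberg adjustment over all 13738 probes, at an adjusted p of 0.05. By that rule 2 of the 13 probes were called with direct exposure, against 18.2% of all probes, of which 6.82% of all probes were higher and 11.4% lower. The share among the 13 is near that of the whole array. At an unadjusted p of 0.05, 3 of the 13 passed, against 33.1% of all probes. With indirect exposure 0 of 13 were called, as were 0% of all probes. At an unadjusted p of 0.05, 9.64% of all probes passed in that arm and 0 of the 13 did. Weighting the arrays by quality called 717 probes in the indirect arm, again with 0 of the 13 among them.

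NR3C1, the receptor through which cortisol regulates its target genes, had levels of −4.20, −4.45, −4.22 and −4.31 on the fetal vehicle arrays and −3.65, −3.50, −3.30 and −3.94 on the fetal triclosan arrays. Every fetal triclosan array was above every fetal vehicle array, as for 9.3% of all probes, and the spread was wider with triclosan (SD 0.27 against 0.11). The difference was 0.69 on the log2 scale (95% interval 0.34 to 1.05, SE 0.16, adjusted p = 0.0154 by limma), a 1.62-fold rise. Slides 1, 2 and 3 carried the fetal triclosan and fetal vehicle arrays of those numbers, and slide 3 also fetal vehicle replicate 4. Within these slides the difference was 0.54, 0.95 and 0.96, the last against the mean of both vehicle arrays. Fetal triclosan replicate 4, the only array of its slide and scan day, enters none of these values; it had the lowest NR3C1 level of its group.

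The direction of NR3C1 ran against that of probes of like brightness. Its mean signal put it in the third of 10 equal brightness bins, where the median difference with direct exposure was −0.26, with 1.67% of probes called higher and 16.1% called lower. After quantile normalisation the median of that bin was 0.003, so the fall of such probes depended on the scaling. Over all probes the median difference was −0.09 with this scaling, 0.13 with scaling to the array median and 0.01 after quantile normalisation. NR3C1 was called higher under each of these scalings.

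With infusion into the ewe, NR3C1 was at −4.41 and −4.57 on the maternal vehicle arrays and at −3.98, −3.74 and −4.37 on the maternal triclosan arrays. The groups did not overlap, as was the case, higher with triclosan, for 19.9% of all probes in this arm of 2 against 3. The difference of 0.46 (interval −0.01 to 0.92, SE 0.21) had an adjusted p of 0.523 by limma. Within slides 1 and 2 it was 0.43 and 0.82. With the normexp background correction it was −0.03. With array weights, which called 717 of all probes in this arm, it was 0.50 (adjusted p = 0.0559 by limma) and did not pass. The effects in the arms differed by 0.24 (SE 0.27, adjusted p = 0.675 by limma), so a difference between the routes was not shown. From highest to lowest the group means were fetal triclosan (−3.60 ± 0.27, SD), maternal triclosan (−4.03 ± 0.32), fetal vehicle (−4.29 ± 0.11) and maternal vehicle (−4.49 ± 0.11), and each group overlapped the next in this order.

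**Figure D1:**
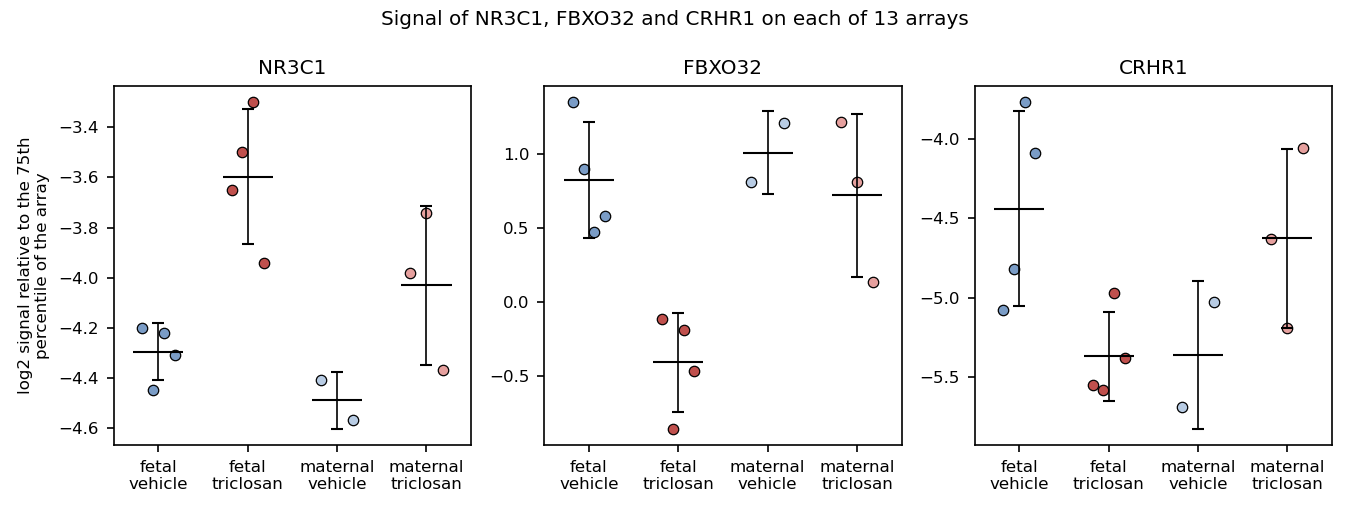
Signal of NR3C1, FBXO32 and CRHR1 on each of 13 arrays, as log2 relative to the 75th percentile of the array. Points are arrays, long bars are group means and error bars 1 SD (n = 4, 4, 2 and 3). The fetal triclosan arrays lie above all fetal vehicle arrays for NR3C1 and below them for FBXO32, while for CRHR1 the groups overlap.

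FBXO32 had levels of 1.35, 0.90, 0.47 and 0.58 with fetal vehicle and −0.12, −0.86, −0.19 and −0.47 with fetal triclosan. All 4 fetal triclosan arrays were below all other arrays of the series (12.6% of all probes were lower than fetal vehicle without overlap). The difference was −1.23 (interval −1.82 to −0.65, SE 0.27, adjusted p = 0.0109 by limma), a 2.35-fold fall, and it was −1.47, −1.76 and −0.71 within slides 1, 2 and 3. Probes of its brightness bin, the eighth of 10, had a median difference of 0.05, with 6.99% called lower.

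After infusion of the ewe, FBXO32 was at 0.81 and 1.21 on the vehicle arrays and at 1.22, 0.81 and 0.13 on the triclosan arrays, and the groups overlapped. The difference of −0.29 (SE 0.34) had an adjusted p of 0.784 by limma. The direct minus the indirect difference was −0.94 (interval −1.90 to 0.01). It had an unadjusted p of 0.0522 and an adjusted p of 0.343 by limma, so a difference between the routes was not shown. For the difference between arms 14.7% of all probes passed an unadjusted p of 0.05 and 0% an adjusted one. The group means ran from maternal vehicle (1.01 ± 0.28, SD) through fetal vehicle (0.82 ± 0.39) and maternal triclosan (0.72 ± 0.55) to fetal triclosan (−0.41 ± 0.34). The first 3 of these groups overlapped one another, and only fetal triclosan stood apart. The probe was designed from an expressed sequence tag named FBXO32 in the array files, and the gene has no other probe among those matched here.

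CRHR1 carries the signal of corticotropin-releasing hormone in corticotrophs and in the brain. Its levels were −5.08, −4.82, −3.77 and −4.09 with fetal vehicle and −5.55, −5.58, −4.97 and −5.38 with fetal triclosan. Fetal vehicle replicates 3 and 4 were the high arrays, and fetal triclosan replicate 3 lay above fetal vehicle replicate 1, so the groups overlapped. The difference was −0.93 (interval −1.63 to −0.22, SE 0.32), with an adjusted p of 0.0673 by limma. Within slides 1, 2 and 3 it was −0.47, −0.76 and −1.03, with the mean of fetal vehicle replicates 3 and 4 on slide 3.

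The CRHR1 result depended on the fit. It passed with the slide as a block, which leaves fetal triclosan replicate 4 without a partner (−0.78, adjusted p = 0.0326 by limma), with the mixed maternal vehicle array included (adjusted p = 0.0480) and without fetal vehicle replicate 1 (−1.14, adjusted p = 0.0441). It also passed with the replicate number as a block (−0.93, adjusted p = 0.0181 by limma). It was −0.31 with the normexp background correction and −0.36 with the authors' deposited values, and passed in neither. CRHR1 was in the second of 10 brightness bins, where the median difference was −0.27 and 9.83% of probes were called lower. After quantile normalisation the median of that bin was −0.04.

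CRHR1 ran the other way on average in the indirect arm. It was at −5.69 and −5.03 with maternal vehicle and at −4.63, −5.19 and −4.06 with maternal triclosan, which overlapped. The difference was 0.74 (SE 0.42, adjusted p = 0.578 by limma), and −0.06 with the normexp correction. Within slides 1 and 2 it was 1.06 and −0.16, so its sign was not the same on both. With the slide as a block it was 0.45. The difference between the arms was −1.66 (interval −2.81 to −0.51), with an unadjusted p of 0.00865 and an adjusted p of 0.254 by limma. Maternal vehicle was itself below fetal vehicle (maternal minus fetal −0.92, SE 0.39, adjusted p = 0.999 by limma). Within slides 1 and 2 that gap was −0.61 and −0.22. Slide 3, which held the 2 high fetal vehicle arrays and the highest maternal triclosan array, carried no maternal vehicle array. The part of the slide in these differences was not tested. No probe passed the adjusted threshold between the vehicle groups (0% of all probes, and 3.28% at an unadjusted p of 0.05). The group means were −4.44 ± 0.61 (SD) with fetal vehicle, −4.63 ± 0.57 with maternal triclosan, −5.36 ± 0.46 with maternal vehicle and −5.37 ± 0.28 with fetal triclosan, and neighbours in this order overlapped.

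The 5 spots of the CRHR1 probe give the error within an array. The SD of log2 signal among the spots ranged from 0.10 to 1.07. It was highest on maternal triclosan replicate 1, at 1.07, with 0.77 on fetal triclosan replicate 3 and 0.59 on fetal vehicle replicate 1. On those 3 arrays single spots lay further apart than the means of the fetal groups; those of maternal triclosan replicate 1 ran from −6.33 to −3.35. In all, 4 spots had outlier marks and were left out, 1 each on fetal vehicle replicates 3 and 4, fetal triclosan replicate 1 and maternal vehicle replicate 1.

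**Figure D2:**
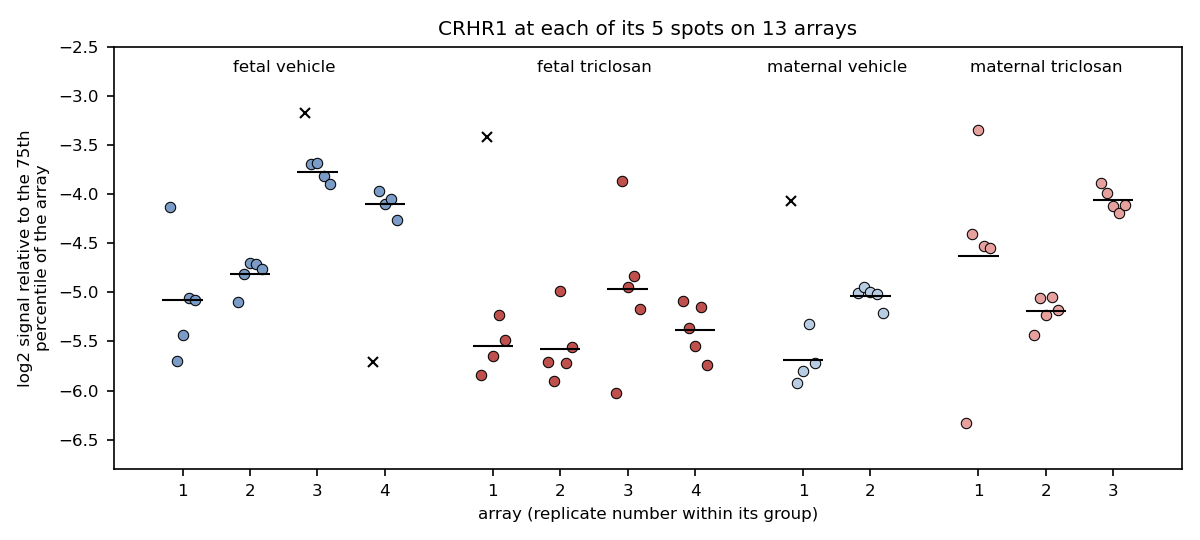
Each of the 5 CRHR1 spots on the 13 arrays, as log2 signal relative to the 75th percentile of the array. Crosses are spots left out for outlier marks and lines are the mean of the spots kept. The spots of maternal triclosan replicate 1 (SD 1.07) and fetal triclosan replicate 3 (SD 0.77) are spread most widely.

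CRHBP, the secreted protein that binds corticotropin-releasing hormone and limits its action, passed the test in neither arm. Probe 1 was at −0.19, −1.06, −0.66 and 0.69 with fetal vehicle and −0.17, 0.65, −0.23 and −0.55 with fetal triclosan. The arrays of each group spanned more than 1 log2 unit, and the group ranges overlapped widely. The direct difference was 0.23 for probe 1 (interval −0.60 to 1.06) and 0.29 for probe 2, and the indirect difference −0.01 (−1.08 to 1.06) and −0.25. The 2 probes, shifted by 1 base, followed each other over the 13 arrays (Pearson r = 0.937, Spearman rho = 0.923, as a description), so that the spread between arrays was seen by both.

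AVPR1B is the vasopressin receptor of corticotrophs. Its 2 probes, also shifted by 1 base, did not follow each other over the 13 arrays (r = −0.336, rho = −0.297). Probe 1 was at −4.65, −5.29, −2.31 and −5.39 with fetal vehicle and −4.93, −5.33, −4.42 and −4.78 with fetal triclosan. Fetal vehicle replicate 3 stood far above the rest, and probe 2 on that array was at −6.13, within its own range, a gap of 3.83 between probes that share 59 bases. The direct difference was −0.46 for probe 1 and 0.21 for probe 2, and without that array it was 0.24 for probe 1. In the indirect arm it was −0.46 for probe 1, with maternal triclosan below maternal vehicle without overlap (19.1% of all probes did so), and 0.19 for probe 2. No direction is given for AVPR1B. The 4 of 7 anterior pituitary markers measured summed to 10.7 to 15.8 (fetal vehicle), 10.8 to 20.1 (fetal triclosan), 13.5 to 15.0 (maternal vehicle) and 14.3 to 17.7 (maternal triclosan), and these ranges overlapped within each arm. LHB carried most of the sum. Its group means were 3.75 to 3.94 on the log2 scale, whereas the sums are of signals not on a log scale. The other members did not go one way: with indirect exposure PRL differed by −1.57 and CGA by 3.83, each without overlap, and with direct exposure by −0.09 and 0.01, and none passed. The part of pituitary tissue in the values of AVPR1B and CRHR1 was not tested.

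HSD11B1, the enzyme that regenerates cortisol from cortisone inside cells, was measured by 2 probes that do not overlap in sequence. Probe 1 was at 0.10, −0.57, −0.11 and −0.04 with fetal vehicle and −0.26, −0.03, −0.03 and 0.80 with fetal triclosan. Fetal triclosan replicate 4 was the one high array on both probes (−1.44 on probe 2, against −2.96 to −2.04 with fetal vehicle), and the groups overlapped. The direct difference was 0.28 on both probes (interval on probe 1 −0.21 to 0.76), and 0.050 and 0.044 without fetal triclosan replicate 4. In the indirect arm the maternal triclosan arrays were above the maternal vehicle arrays on both, as for 19.9% of all probes, with differences of 0.42 and 0.52, and neither passed. Over the 13 arrays these probes moved together (r = 0.975, rho = 0.945), although they share no bases.

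HSD11B2, which inactivates cortisol to cortisone, was near background on most arrays. Probe 1 was well above background on fetal vehicle replicates 1 and 3 and fetal triclosan replicates 2 and 3 alone, and on 0 of the 5 arrays of the indirect arm. On the fetal triclosan arrays it read −8.33, −4.45, −2.44 and −7.21, and probe 2 read −6.99, −4.43, −2.30 and −7.69. Replicates 2 and 3 were the high arrays on both probes, and the other fetal triclosan arrays lay within or below the fetal vehicle range of −7.50 to −5.83 on probe 1. The direct difference was 1.20 (SE 1.02) and 1.75 (SE 1.03), neither of which passed, and without fetal triclosan replicate 3 it was 0.14 and 0.74.

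The same fetal triclosan arrays were the highest for markers of choroid plexus, the epithelium that secretes cerebrospinal fluid. Of 5 such markers 2 were measured, TTR and AQP1, and their summed signal, mostly TTR, was 0.253, 3.96, 10.4 and 0.898 on fetal triclosan replicates 1 to 4, 0.514 to 2.58 on the fetal vehicle arrays, 0.929 to 1.43 on the maternal vehicle arrays and 0.301 to 0.668 on the maternal triclosan arrays. On fetal vehicle replicates 1 to 4 the sum was 1.55, 0.514, 0.523 and 2.58, and HSD11B2 probe 1 read −5.83, −7.22, −6.68 and −7.50. Probe 2 read −5.81, −8.02, −7.01 and −7.59 on these arrays. The array with the highest sum had the lowest level of probe 1, and that with the lowest sum the lowest of probe 2. Neither of these 2 readings was well above background. CLIC6, FOLR1 and KL were not analysed here. The part of choroid plexus in the HSD11B2 values was not tested. In the indirect arm probe 2 was well above background on 1 of 3 maternal triclosan arrays and on 0 of 2 maternal vehicle arrays, and limma's test did not pass.

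**Figure D3:**
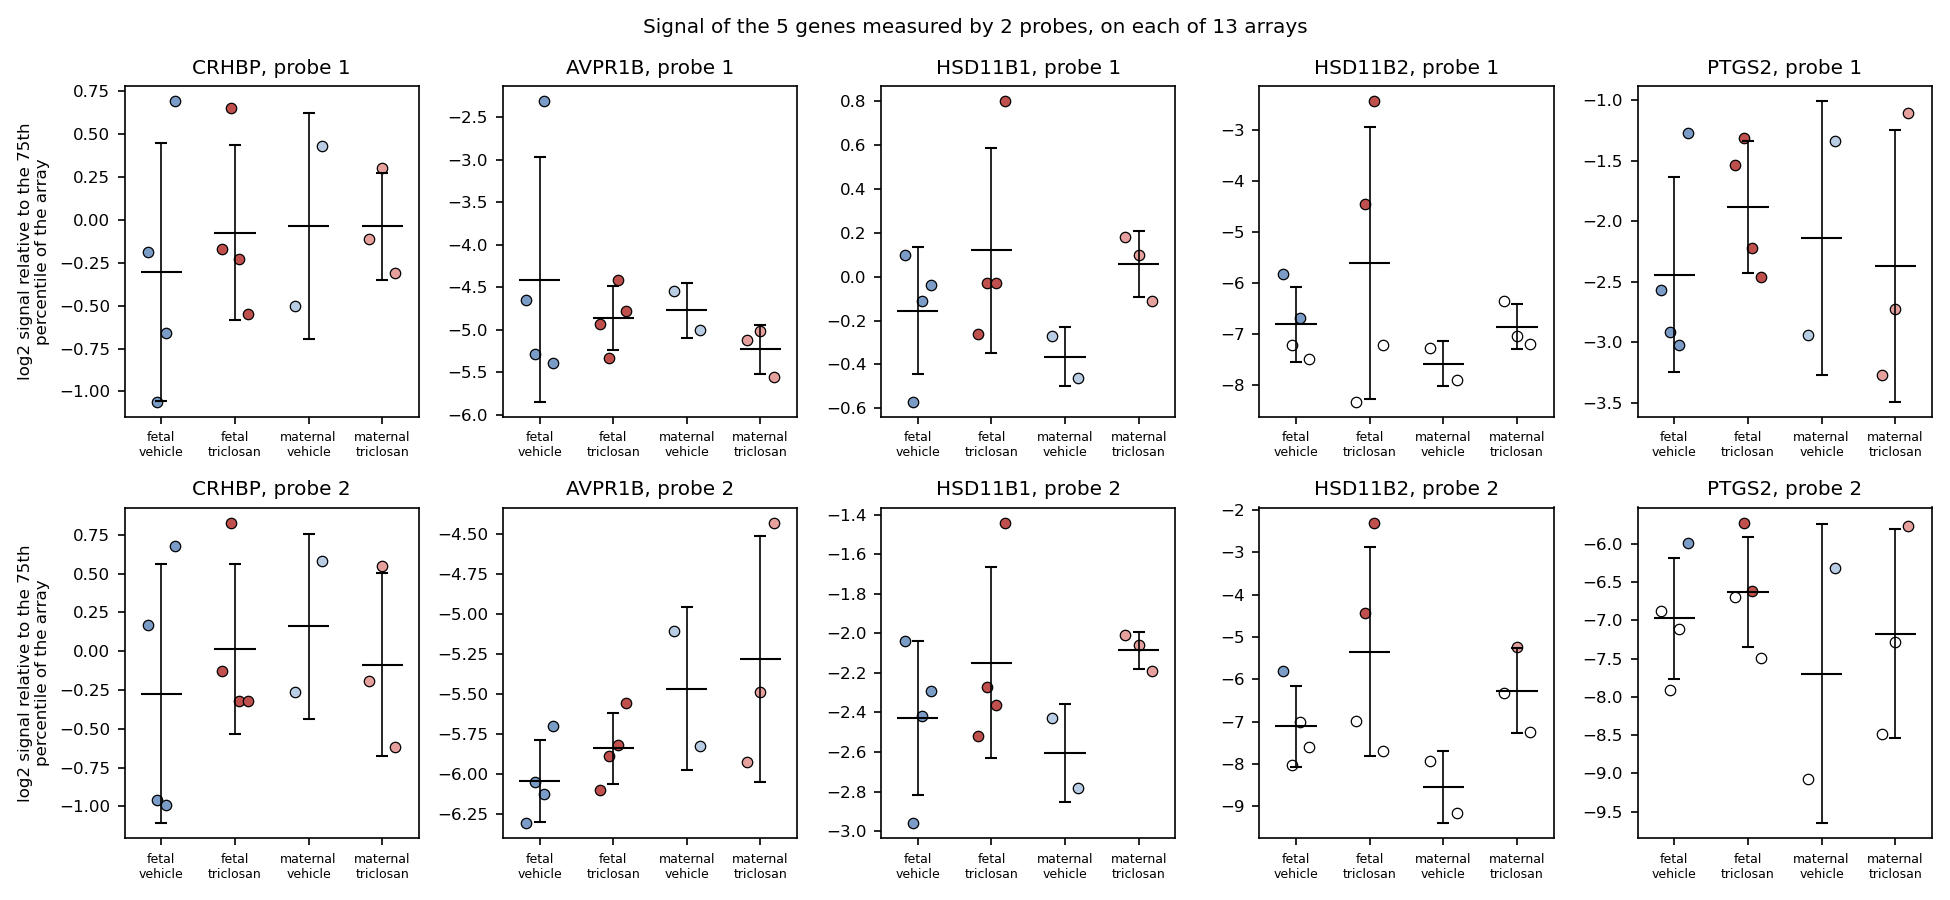
Both probes of CRHBP, AVPR1B, HSD11B1, HSD11B2 and PTGS2 on the 13 arrays, as log2 signal relative to the 75th percentile of the array. Open circles are signals not well above background. The probes of CRHBP and HSD11B1 move together, those of AVPR1B do not, and HSD11B2 is high on fetal triclosan replicates 2 and 3.

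PTGS2, the inducible enzyme of prostaglandin synthesis, varied more between arrays of one group than between groups. Its brighter probe was at −2.57, −2.91, −3.02 and −1.27 with fetal vehicle and −1.54, −1.31, −2.22 and −2.46 with fetal triclosan. With maternal vehicle it was at −2.94 and −1.34, and with maternal triclosan at −3.27, −2.72 and −1.11. In 3 of the 4 groups a single array stood over 1 log2 unit above the rest, and all groups overlapped. The direct difference was 0.56 (interval −0.64 to 1.76) and the indirect −0.23 (−1.78 to 1.32), and neither passed. The dimmer probe, at another place of the transcript, was well above background on 5 of 13 arrays and followed the brighter one (r = 0.862, rho = 0.890).

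**Figure D4:**
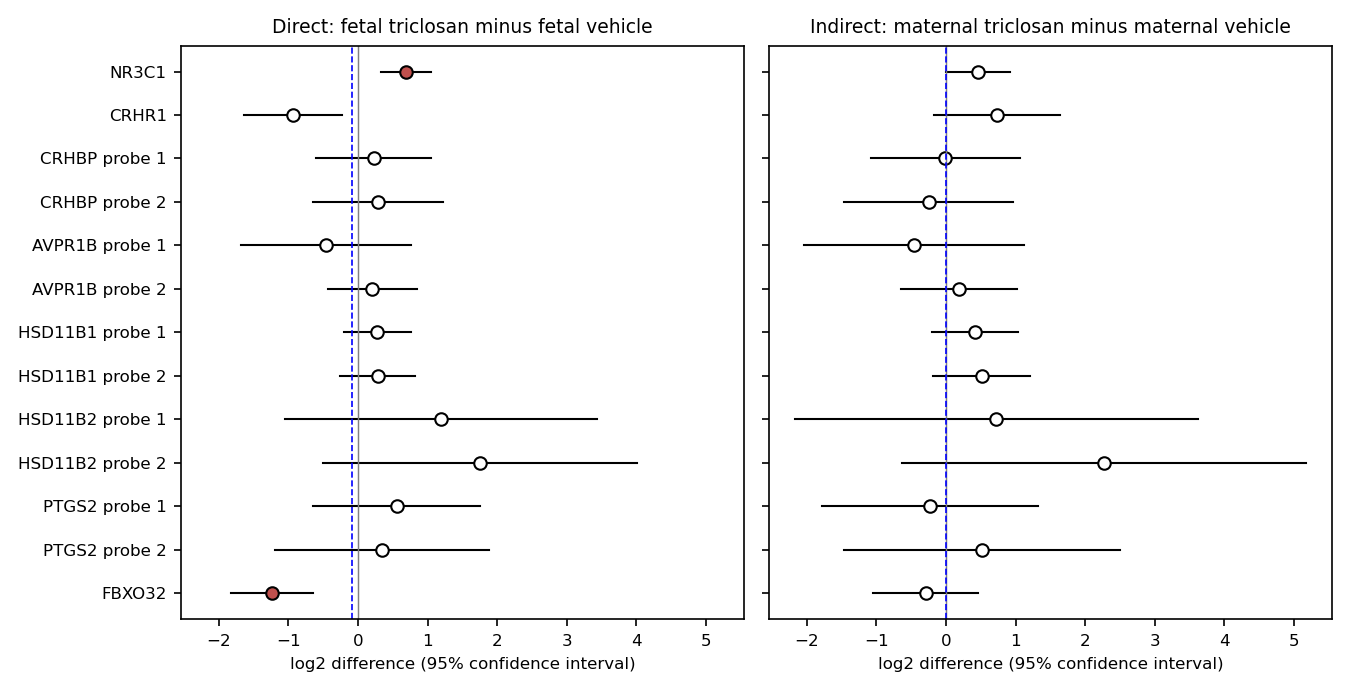
Log2 difference between triclosan and vehicle for the 13 probes with direct and indirect exposure, with 95% intervals of the limma fit; the dashed line is the median of all probes. NR3C1 (0.69) and FBXO32 (−1.23) with direct exposure are the 2 called.

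Other genes of the pathway were taken from 6 lists, of which 19 genes in all were measured. With direct exposure 1 rose and 2 fell (median −0.13), against 54 and 82 of 901 named genes (median −0.10), and with indirect exposure 0 were called. Both measured members of the list of 12 receptor chaperones, the proteins that hold the glucocorticoid receptor ready to bind cortisol, fell. HSP90AA1 ranged from 3.32 to 3.45 with fetal vehicle and 2.43 to 2.72 with fetal triclosan (−0.80, SE 0.13, adjusted p = 0.00429 by limma). HSP70.1 ranged from 0.74 to 0.94 and −1.54 to −0.20 (−1.48, SE 0.26, adjusted p = 0.00520). Neither gene's groups overlapped, as for 12.6% of all probes in this direction. With indirect exposure the differences were −0.92 for HSP90AA1 and −0.72 for HSP70.1, with adjusted p of 0.246 and 0.523 by limma.

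Of 14 prostaglandin genes 6 were measured and 1 rose. PTGDS, a prostaglandin D synthase abundant in the meninges and choroid plexus, rose by 0.55 (SE 0.15, adjusted p = 0.0302 by limma), with levels of 5.19 to 5.91 and 5.80 to 6.21 that overlapped. PTGER3, PTGER2 and PTGER4, receptors of prostaglandin E2, differed by −0.32, −0.49 and −0.52, and PTGS1, the constitutive synthesis enzyme, by 0.39. None of these 4 passed. The list median was 0.02.

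The remaining lists had no call in any comparison. Among 16 genes of the axis' signals and receptors, POMC, the precursor of corticotropin, differed by 0.65 and OXT by 0.43 with direct exposure, and by 1.66 and 0.44 with indirect exposure; CRH and AVP were not analysed here. The 4 measured of 13 steroid enzymes, STAR, CYP11A1, CYP17A1 and CYP11B1, differed by −0.30, 0.13, −0.13 and −0.43. Of 16 glucocorticoid targets 2 were measured, and neither passed: PCK1, a gluconeogenic enzyme, differed by −0.68 and NFKBIA, an inhibitor of NF-kappa-B, by 0.20. With indirect exposure PCK1 differed by 1.66 (adjusted p = 0.519 by limma). Of 11 genes of atrophy and ubiquitin that go with FBXO32, SKP1, a subunit of the same class of ligase, differed by 0.26, UBB by 0.34 and MSTN by −0.28.

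The named genes whose levels over the 13 arrays were most like those of each gene were found by Pearson correlation among 885 genes; they share arrays, scaling and group differences, and are given as a description. For NR3C1 they were RPS26, a ribosomal protein (r = 0.92, and 0.69 after removing group means), NDUFA12, of mitochondrial complex I (0.86 and 0.57), and SLIRP, a mitochondrial RNA-binding protein (0.86 and 0.43). For FBXO32 they were GLUT-1, a glucose transporter (0.94 and 0.75), JUND, a transcription factor subunit (0.90 and 0.58), and CSNK1E, a kinase (0.89 and 0.57). The likeness of NR3C1 and FBXO32 to these genes was thus lower within groups than over all arrays.

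For CRHR1 the most like were SGP-1 (r = 0.91, within groups 0.85), HAND1 (0.90 and 0.86) and FASN, fatty acid synthase (0.84 and 0.83), which were nearly as alike within groups. CRHBP was most like 5HT2A, a serotonin receptor (0.84 and 0.85), and HSD11B1 most like AQP4, the water channel of astrocytes (0.84 and 0.79). PTGS2 was most like TLR3, a receptor of double-stranded RNA (0.82 and 0.81), and AVPR1B probe 1 most like MGLUR2, a glutamate receptor (0.78 and 0.75). The other genes named by this rule were NRG1 and OMYHC2X for CRHBP, CENP-B and PCNA for HSD11B1, RTP4 and ISG15 for HSD11B2, ALDH1A1 and FLAP for PTGS2, and MDH and GATA3 for AVPR1B, with r from 0.65 to 0.83. OMYHC2X was well above background on 4 of the 13 arrays and MGLUR2 on 10. CRHBP was compared by its probe 2.

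**Figure D5:**
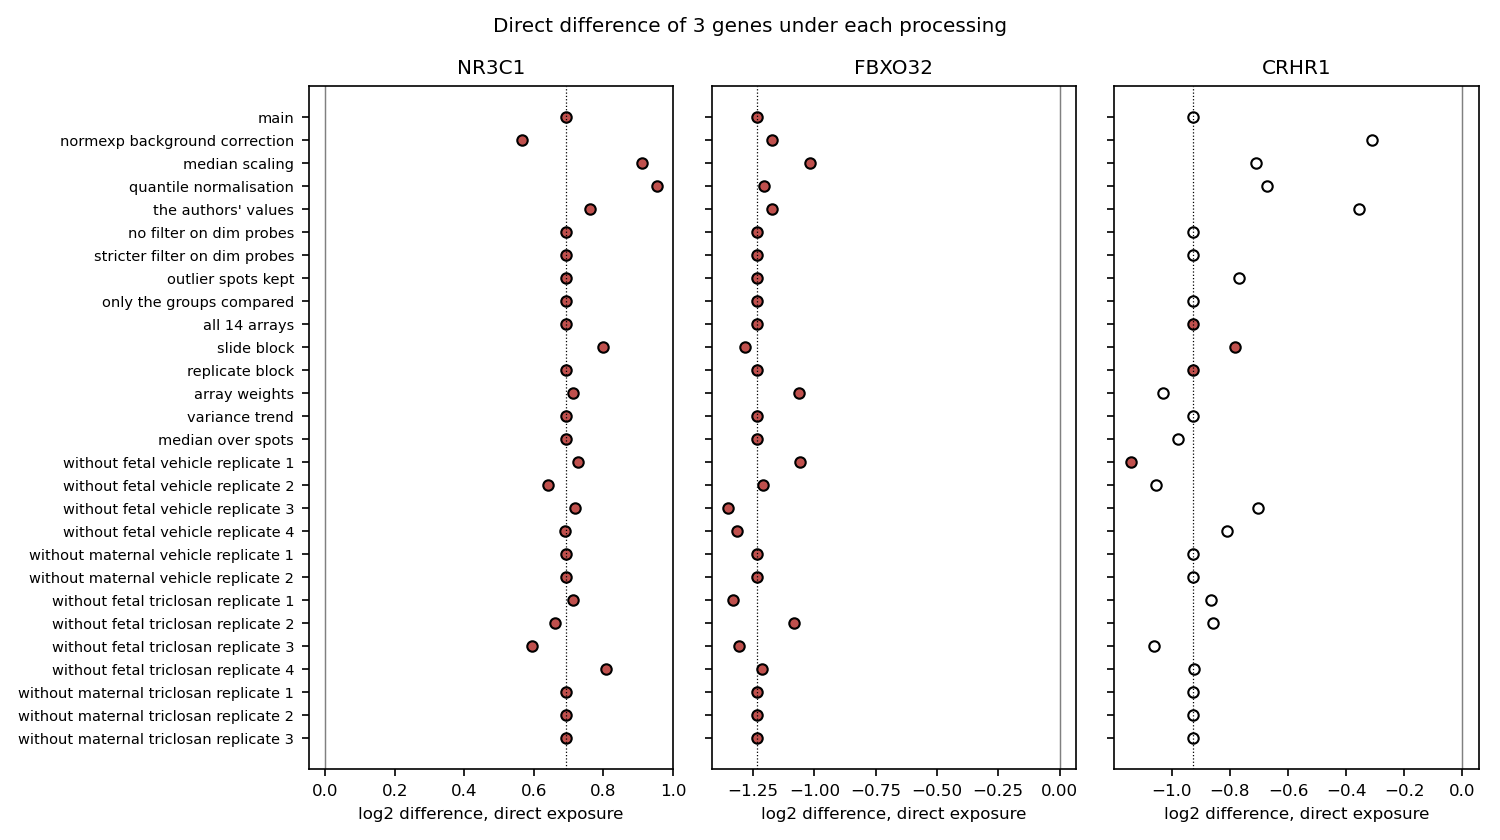
Direct log2 difference of NR3C1, FBXO32 and CRHR1 under each processing alternative and with each array left out. Red points have an adjusted p under 0.05. NR3C1 (0.57 to 0.95) and FBXO32 (−1.35 to −1.02) pass under every fit shown, whereas CRHR1 (−1.14 to −0.31) passes under 4.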

How the data were processed

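Per the file headers, the deposited scanner files hold spot intensity values from Agilent Feature Extraction 10.1.1.1; the processed signal was background-subtracted and not normalised between arrays by the authors. The authors' deposited value table appears to be on a log2 scale; its scaling is not given here, and it served as an alternative.

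The log2 processed signal minus the 75th percentile of each array was used. Control spots and outlier spots were left out, spots of a probe averaged, and probes well above background on at least 3 arrays kept (13738 probes, with 250 values missing). The model, in limma 3.58.1 (R 4.3.3), had group means of 13 arrays (9 residual and 2.36 prior degrees of freedom), and the script was tested on simulated data. Python 3.11.15 with scipy 1.17.1, pandas 2.3.3, numpy 2.4.6 and matplotlib 3.10.9 did the rest. The number of arrays and their background limit the precision.

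Symbols came from the files and RefSeq's gene table (assembly ARS-UI_Ramb_v3.0), by transcript for 704 probes, by symbol for 484, by gene number for 125 and by an older symbol for 20, while 223 kept the file's name. Probe sequences came from the files. No coordinates are given.

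The members and gene lists were chosen with earlier results of these data known. All 13 probes are named; of each list, every gene called and up to 4 others with the smallest unadjusted direct p; and the 3 most alike genes, of which 1 is not reported here. Markers and lists were matched by symbol only. Slides were read from the headers. Alternatives covered background correction, scaling, filters, outlier spots, array weights, variance trend, slide and replicate blocks, arrays in the fit, and each array left out.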

Additional observations from a re-analysis of the deposited data

Results flagged for a closer look

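The CRHBP level on fetal triclosan replicate 2 (0.83 on probe 2) lay far above the other 3 arrays of its group, which read −0.13, −0.32 and −0.32. Its gap to the nearest was 0.833 of the range of the group, just past the critical value of Dixon's test for 4 samples. Chance alone puts about 1 in 20 groups past that value. CRHBP probe 1, which shares 59 bases, read 0.65 on the same array and −0.17, −0.23 and −0.55 on the others, and did not pass.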

How the results depend on the processing

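The number of the 13 probes called with direct exposure was 2 to 3 under all alternatives, and 0 for indirect exposure, for the difference between arms and between the vehicle groups in every one run. NR3C1 and FBXO32 kept direction and call with direct exposure under all processing alternatives and without any 1 array (NR3C1 0.59 to 0.81, adjusted p 0.00676 to 0.0421; FBXO32 −1.35 to −1.06, 0.00808 to 0.0321, limma). Of 801 values of single probes under alternatives, 766 kept direction and side of the threshold, 4 (all CRHR1, direct) became calls and 31 changed sign without a call. The cause of these changes was not tested.

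Signs changed with normexp correction for the indirect differences of NR3C1 (−0.029), CRHR1 (−0.064), AVPR1B probe 2 (−0.30), HSD11B2 probes 1 and 2 (−0.43, −0.25) and PTGS2 probe 2 (−0.58), and for the vehicle difference of CRHR1 (0.012). With array weights they changed for the indirect AVPR1B probe 2 (−0.20), PTGS2 probe 2 (−0.24) and FBXO32 (0.0042). The indirect CRHBP probe 1 became 0.032 with median scaling, 0.024 with quantile normalisation and 0.0021 with all 14 arrays, and the indirect PTGS2 probe 2 −0.047 with quantile normalisation. The direct PTGS2 probe 2 was −0.18 with the authors' values. Leaving out 1 array gave direct values of −0.024 to 0.56 for CRHBP probe 1 and −0.79 to 0.24 for AVPR1B probe 1. It gave indirect values of −0.47 to 0.46 and −0.67 to 0.17 for CRHBP probes 1 and 2, −0.24 to 0.55 for AVPR1B probe 2, −1.03 to 0.57 and −0.87 to 1.91 for PTGS2 probes 1 and 2, and −0.54 to 0.0038 for FBXO32.

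Over all probes, 1214 (without fetal vehicle replicate 3) to 3121 (median scaling) were called with direct exposure, and 1275 in a fit of the fetal groups alone; in the indirect arm all 14 arrays called 12. Replicate numbers were not taken to pair the samples, since not every pair correlated above 0.1: deviations of same-numbered fetal vehicle and fetal triclosan arrays correlated at 0.13, 0.12 and 0.27 for the pairs sharing a slide and −0.17 for the pair that does not, of the maternal ones at −0.08 and −0.08, and of the vehicle groups at 0.46 and 0.14. Fetal vehicle replicate 2 correlated best with another number. With the replicate block 3 of the 13 probes were called with direct exposure (CRHR1 −0.93, adjusted p = 0.0181), 2824 of all probes were called, and the indirect CRHBP probe 1 was 0.094. Median over spots, for CRHR1, was chosen after seeing the data. HSD11B2 and PTGS2 probe 2 gave no value under the stricter filter. These dim probes are limited by signal over background.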
